A study of Arabidopsis thaliana with 8 samples.

Results

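The cold and drought protective protein genes described here are 10 Arabidopsis loci chosen by name: COR15A (AT2G42540), COR15B (AT2G42530), KIN1 (AT5G15960), KIN2 (AT5G15970), RD29A (AT5G52310), RD29B (AT5G52300), COR47 (AT1G20440), ERD10 (AT1G20450), RAB18 (AT5G66400) and RD20 (AT2G33380). They are 10 of the 23935 genes listed in any of 3 deposited tables, and all 10 were listed and tested in each table. The study measured messenger RNA from whole 10-day-old Col-0 seedlings in 8 libraries, 2 for each of 4 groups: the mutant arid5(-/-), the double mutants chr11(-/-)chr17(-/-) and rlt1(-/-)rlt2(-/-), and wild type (WT). ARID5, the ATPases CHR11 and CHR17 and the DDT-domain proteins RLT1 and RLT2 belong to plant ISWI chromatin remodelling complexes, and the series is about how ARID5 acts in the switch to flowering. Per the labels, seedlings of every group grew on plates of MS medium under 16 h days at 23 °C and 8 h nights at 21 °C, and no cold or drought treatment is named. The sources used here give neither the mutant alleles nor whether the 2 libraries of a group came from separately grown plants; the p-values thus reflect the scatter among these libraries alone, and this scatter could be technical.

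Most of these genes encode small, hydrophilic, largely disordered proteins of the late embryogenesis abundant (LEA) kind, which accumulate in cold or drying plants and are thought to shield membranes and enzymes. Their promoters are classic targets of 2 signalling arms. CBF/DREB1 factors, made in the cold, bind the C-repeat or dehydration-responsive element (CRT/DRE). ABF factors, activated by the drought hormone abscisic acid (ABA), bind the ABA-responsive element (ABRE). RD29A is widely used as a reporter of both arms, and RD29B and RAB18 as reporters of ABA.

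Because these elements are what is known to join the genes, their sequences are shown before the values. The CRT/DRE match nearest the start codon was read from the TAIR10.1 genome for the 9 genes that have a match within 500 bases before the start codon in the RefSeq annotation. Each line gives 10 bases on either side of the match, 5′ to 3′ on the gene's strand, with matches to ACCGAC or GCCGAC in capitals.
COR15A (chr2:17712218-17712243, minus strand): caatttcatgGCCGACctgctttttt
COR15B (chr2:17710124-17710149, minus strand): caacttgatgGCCGACctcttttttc
KIN1 (chr5:5209803-5209828, plus strand): ataaatagctACCGACataaggcaaa
KIN2 (chr5:5211770-5211795, plus strand): ataaaaagctACCGACataaggcaaa
RD29A (chr5:21240710-21240735, plus strand): aaaagatcaaGCCGACacagacacgc
RD29B (chr5:21236874-21236899, plus strand): ataaacgtggACCGACtaaaactaaa
COR47 (chr1:7085918-7085943, minus strand): atattcatctACCGACttcaagaaat
ERD10 (chr1:7089363-7089388, minus strand): ccACCGACCGACCGACgtaaaagaaa
RAB18 (chr5:26519345-26519370, minus strand): gaaacaccacGCCGACattttctgct
The ERD10 line holds 3 matches in a row, each sharing bases with the next. Annotated gene starts lie 181 to 1209 bases before the start codon, so 8 of these 9 matches fall inside the gene model ahead of the coding sequence, and the match of RD29B falls before its annotated start.

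The 250 bases before the annotated start are shown for RD29A and RD29B, adjacent genes with unlike mixes of the 2 elements, for COR15A, and for RD20, the gene with no CRT/DRE match. Capitals mark CRT/DRE matches (ACCGAC or GCCGAC, or GTCGGT or GTCGGC on the other strand) and ABRE core matches (ACGTG, or CACGT on the other strand).
RD29A (chr5:21240467-21240716, plus strand): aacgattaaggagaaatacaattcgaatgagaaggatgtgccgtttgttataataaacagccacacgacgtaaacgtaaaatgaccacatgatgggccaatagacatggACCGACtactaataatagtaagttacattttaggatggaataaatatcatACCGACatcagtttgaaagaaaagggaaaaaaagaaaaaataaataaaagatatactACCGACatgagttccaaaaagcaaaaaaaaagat
RD29B (chr5:21236771-21237020, plus strand): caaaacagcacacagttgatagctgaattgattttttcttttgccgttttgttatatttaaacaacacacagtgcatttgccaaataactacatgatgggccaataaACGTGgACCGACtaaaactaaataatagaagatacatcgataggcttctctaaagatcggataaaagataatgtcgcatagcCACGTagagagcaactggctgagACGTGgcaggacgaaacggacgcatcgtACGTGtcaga
COR15A (chr2:17712331-17712580, minus strand): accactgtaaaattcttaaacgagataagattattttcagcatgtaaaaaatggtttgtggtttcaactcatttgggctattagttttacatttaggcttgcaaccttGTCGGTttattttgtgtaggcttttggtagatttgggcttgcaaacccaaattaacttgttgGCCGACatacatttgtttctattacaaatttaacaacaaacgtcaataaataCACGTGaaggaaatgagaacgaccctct
RD20 (chr2:14146556-14146805, minus strand): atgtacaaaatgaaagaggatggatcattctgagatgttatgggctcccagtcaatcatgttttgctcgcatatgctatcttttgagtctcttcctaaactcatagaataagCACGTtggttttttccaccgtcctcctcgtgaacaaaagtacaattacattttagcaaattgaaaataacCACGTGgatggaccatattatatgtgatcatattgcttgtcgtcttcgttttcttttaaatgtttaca
In this window RD29A has 3 CRT/DRE matches and no ABRE core match, RD29B has 1 and 4, COR15A has 2 and 2, and RD20 has none and 3. RD29A does have 1 ABRE core match beyond this window, inside its gene model, 143 bases before the start codon. The palindrome CACGTG counts as 2 ABRE core matches, 1 on each strand.

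In the longer window of 500 bases before the start codon, 9 of the 10 genes had a CRT/DRE match, against 12.9% of 27443 protein-coding genes. An ABRE core match was present in 9 of the 10, against 34.8% of those genes, and both motifs were present in 8 of the 10, against 5.08%. RD20 had no CRT/DRE match and ERD10 no ABRE core match in that window. Since these genes became known as targets of the 2 arms partly through such elements, the shares describe the choice of genes, and a match is not shown to be a bound site.

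**Figure D1:**
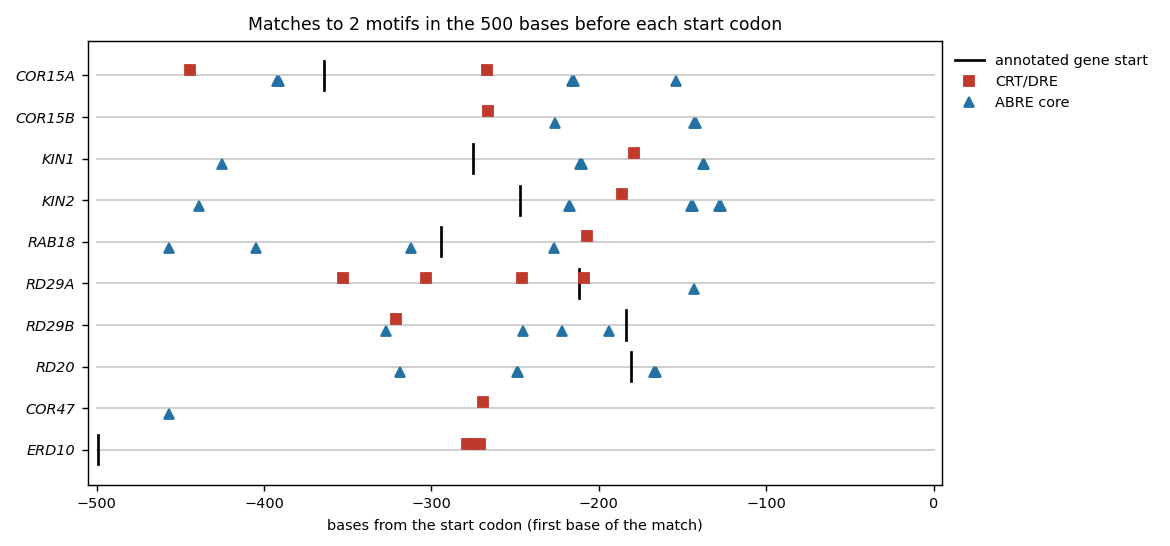
Positions of CRT/DRE (squares) and ABRE core (triangles) matches on either strand in the 500 bases before the start codon of each gene, with the annotated gene start as a black bar where it lies inside that window. RD29A has 4 CRT/DRE matches and ERD10 has 3 side by side, while RD20 has 5 ABRE core matches and no CRT/DRE match.

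The 10 genes include 4 neighbouring pairs, each pair on 1 strand with no annotated gene between its members. The gaps are 7 bases for COR15A and COR15B, 892 for KIN1 and KIN2, 1029 for COR47 and ERD10, and 1185 for RD29A and RD29B. Of the 50-base words in the exons, KIN1 and KIN2 share 10, which is 1.28% of those of KIN1 and 1.43% of those of KIN2, and the other pairs share none, so few reads could be split between paired genes. COR15B overlaps AT2G42520, a gene on the opposite strand, by 468 bases, and RAB18 overlaps AT5G66410, also on the opposite strand, by 11 bases. Whether counting used strand is not given in the sources used here, so reads in these overlaps cannot be told apart.

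Values below are normalised reads: the deposited values, which are read counts adjusted to a common library size within the table of each mutant, rounded here to whole reads. The 3 tables share the WT libraries but were adjusted separately, so WT values differ slightly between them. Whole reads recovered from the tables summed to between 23135817 and 29965298 per library over the 22636 genes common to all tables. ARID5 had 213 and 206 normalised reads in the arid5 libraries, against 831 and 845 in WT. RLT2 had 88 and 61 in the libraries labelled rlt1/2, against 2292 and 2161 in WT, but RLT1 had 2318 and 1908, against 1955 and 1970 in WT, and did not pass the test (adjusted p = 0.385, limma). CHR17 had 771 and 833 in the libraries labelled chr11/17, against 1395 and 1316 in WT, whereas CHR11 had 7226 and 7319, against 3077 and 2915 in WT, and so was higher (adjusted p = 8.03e-06, limma). The double mutant labels are therefore not borne out at the transcript level for CHR11 and RLT1, and the sources used here do not say what the alleles leave of those transcripts; below, arid5, chr11/17 and rlt1/2 stand for the libraries so labelled.

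Per kilobase of exon, the 10 genes covered a wide range in WT seedlings. RPKM here divides reads by exon length and by library size scaled with edgeR's TMM factors. On that scale the dehydrin gene COR47 was highest, at 95.8 and 100 in the 2 WT libraries. KIN2 had 73.2 and 82.3 RPKM and ERD10 had 79.8 and 74.8, which overlap. RD20, at 62.9 and 43.2 RPKM, and RAB18, at 50.9 and 39.4, also overlap. RD29A followed at 28.4 and 24.1 RPKM, COR15A at 23.6 and 17.3, KIN1 at 15.4 and 14.5, and COR15B at 6.23 and 4.9. RD29B was lowest, at 1.86 and 1.27 RPKM. In the libraries labelled chr11/17 the order was different: RD20 led at 1053 and 885 RPKM, ahead of ERD10 at 494 and 495 and COR47 at 393 and 348, and COR15B was lowest at 0.513 and 1.52. Together the 10 genes took 0.327% and 0.31% of the reads in the libraries labelled chr11/17, against 0.0587% and 0.0555% in WT. The same share was 0.0515% and 0.0476% in arid5, and 0.0507% and 0.0552% in the libraries labelled rlt1/2, where the higher library came close to the lower WT library.

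**Figure D2:**
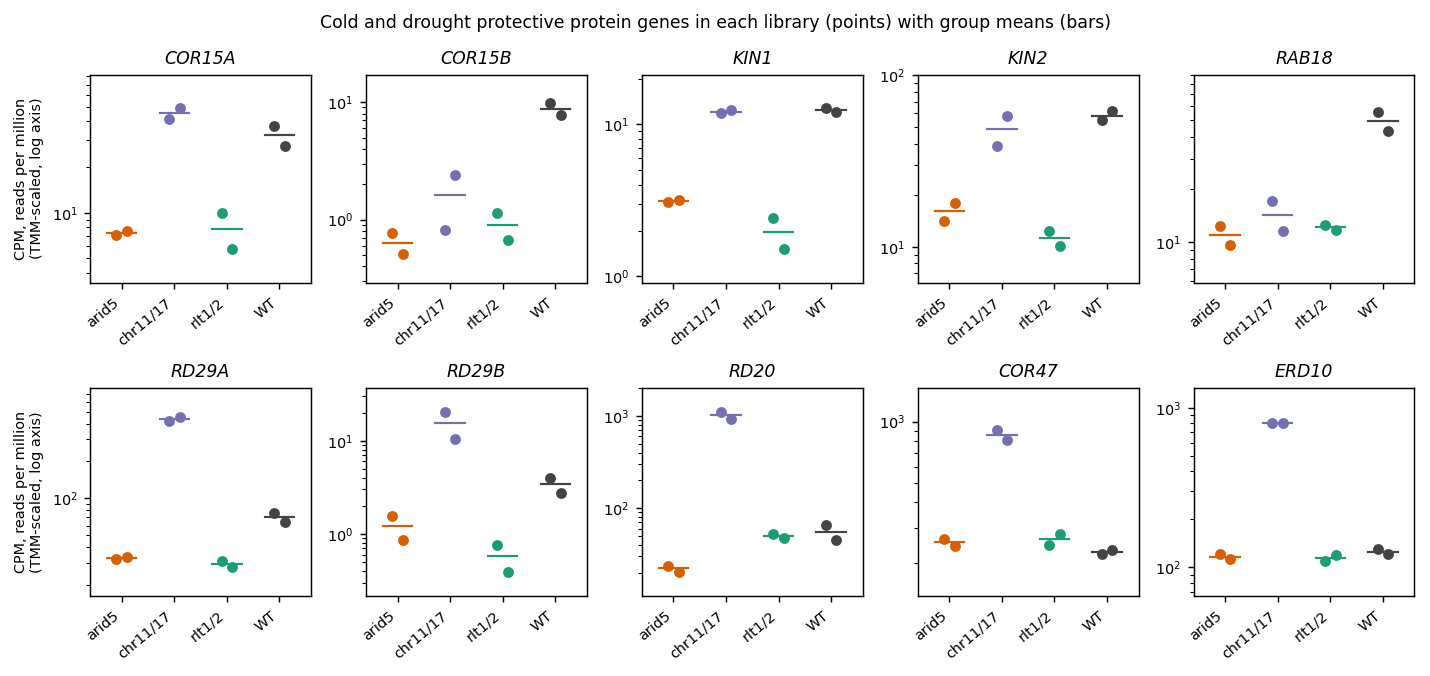
Each gene in every library in CPM (reads relative to library size, scaled by edgeR's TMM factors), on a log axis that differs between panels; points are libraries and bars are the means of 2 libraries. COR15B and RAB18 are low in all 6 mutant libraries, while RD29A, RD29B, RD20, COR47 and ERD10 are highest in the libraries labelled chr11/17.

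In arid5, 8 of the 10 genes fell and 1 rose, beside 47.9% of all 20550 genes called in that comparison (23.3% higher and 24.6% lower). In the libraries labelled rlt1/2, 7 fell, none rose and 3 did not pass the test, beside 47.9% of 20741 genes called (23.8% higher and 24.0% lower). Against WT, the libraries labelled chr11/17 had 6 of the genes higher, 2 lower and 2 that did not pass, beside 71.8% of 20878 genes called (35.9% higher and 36.0% lower). The median log2 change of the 10 genes was -1.56 in arid5, -1.99 in rlt1/2 and 1.18 in chr11/17, while that of all genes tested was 0.00, 0.01 and -0.01. These calls are from limma's trend method on log2(value + 10), two-sided, with Benjamini-Hochberg adjustment over all genes of the table and a threshold of 0.05. The log2 changes that follow are on this scale, which understates the change of low genes, and are given with their standard errors (SE). The 3 comparisons share the same 2 WT libraries, so similar changes in different mutants are not independent of each other. Mutant and WT libraries did not overlap for 15371 of 20550 genes in arid5, 18221 of 20878 in chr11/17 and 15640 of 20741 in rlt1/2. Separation of the 2 groups, as given for single genes below, was thus common among all genes. Within WT, replicate 1 had more normalised reads than replicate 2 for 8 of the 10 genes, and the 10 genes differed between the WT replicates by a median of 0.27 on the log2 scale, against 0.10 for all genes of the arid5 table.

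How libraries are scaled bears on these splits. Rescaling the values to equal library totals moved the median log2 change of all genes to 0.25 in arid5, 0.27 in rlt1/2 and 0.15 in chr11/17. All genes then split into 9767 higher and 2674 lower in arid5, 9681 higher and 2695 lower in rlt1/2, and 8867 higher and 6274 lower in chr11/17. Under that scaling 8 of the 10 genes fell in arid5, 7 in rlt1/2 and 2 in chr11/17. ERD10 in arid5, which did not pass in the main fit, was then called higher. Other rises among the 10 genes under that scaling are not counted here.

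Sums of tissue markers also differed between mutants and WT, except for root genes in chr11/17, where the sums overlapped WT. Summed over 8 green shoot genes, such as RBCS1A and LHCB1.1, the share of reads was 3.14% and 3.38% in arid5, 0.894% and 1.3% in the libraries labelled chr11/17, 3.32% and 2.79% in those labelled rlt1/2, and 5.03% and 4.96% in WT, and all 8 genes were called lower in each mutant. The 12 root genes summed to 126 and 123 CPM in arid5, 98.7 and 102 in chr11/17, 146 and 153 in rlt1/2, and 101 and 98.3 in WT. Of these 12, 8 were called higher and 1 lower in arid5 and in rlt1/2, and 5 higher and 2 lower in chr11/17. Of all genes, 23.3% were called higher and 24.6% lower in arid5, 23.8% and 24.0% in rlt1/2, and 35.9% and 36.0% in chr11/17. The count of root genes called higher in chr11/17 thus does not stand out from that share. Of 16 seed genes, which matter here because dry seeds are rich in LEA proteins, 6 were listed in all 3 tables. These summed to 2.42 and 1.75 CPM in arid5, 18.1 and 7.67 in chr11/17, 2.75 and 2.95 in rlt1/2, and 0.57 and 0.647 in WT. The storage protein gene SESA4 had 0 reads in both WT libraries, EM6 and PER1 had 0 in WT replicate 1, and the oil body gene OLEO1 was listed in the chr11/17 table only, with 24 and 4 reads in chr11/17 and 0 and 1 in WT. Outside the 6, SESA1 had 87 and 84 reads in chr11/17, against 0 and 2 in WT, and CRU3 had 108 and 29, against 0 and 0. All seed genes tested were called higher, 1 in arid5, 7 in chr11/17 and 3 in rlt1/2. With WT near 0 they entered the test through the mutant libraries, so these calls could only be rises. The part of tissue composition in the changes below was not tested, and in whole seedlings fewer cells of a type and less RNA per cell cannot be told apart.

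COR15A and COR15B encode chloroplast stroma LEA proteins that stabilise chloroplast membranes on freezing. Both fell in arid5 and in the libraries labelled rlt1/2, but parted in those labelled chr11/17. COR15A had 170 and 182 normalised reads in arid5, against 897 and 663 in WT, a log2 change of -2.07 ± 0.13 (SE; n = 2 each; adjusted p = 4e-07, limma). It had 267 and 151 in rlt1/2, against 992 and 733 in WT, a log2 change of -2.03 ± 0.21 (adjusted p = 9.08e-06, limma). In both mutants the libraries lay well below both WT libraries. In chr11/17 COR15A had 986 and 1162 normalised reads, against 896 and 662 in WT, a log2 change of 0.47 ± 0.15 (adjusted p = 0.0257, limma). The lower chr11/17 library lay close to the higher WT library, and without WT replicate 2 the log2 change was 0.25 and no longer passed (adjusted p = 0.138).

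COR15B showed the largest fall of the 10 genes against WT in each mutant on this scale. It had 18 and 12 normalised reads in arid5, against 237 and 188 in WT, a 13.9-fold lower mean and a log2 change of -3.14 ± 0.21 (adjusted p = 5.07e-07, limma). The libraries labelled rlt1/2 had 31 and 17, against 262 and 208 in WT, a log2 change of -2.87 ± 0.22 (adjusted p = 1.24e-06, limma). The libraries labelled chr11/17 had 19 and 58, against 237 and 187 in WT, a log2 change of -2.32 ± 0.38 (adjusted p = 0.00121, limma). All 6 mutant libraries were far below WT, although the chr11/17 libraries differed widely from each other. AT2G42520, the gene that overlaps COR15B on the opposite strand, had 1012 and 940 normalised reads in arid5, against 994 and 989 in WT (adjusted p = 0.799), and 1267 and 1222 in chr11/17, against 992 and 987 in WT, where it rose by 0.33 ± 0.07 (adjusted p = 0.00407, limma).

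KIN1 and KIN2 encode very small proteins induced by cold and ABA, and KIN2 is also known as COR6.6. Both fell in arid5 and in the libraries labelled rlt1/2, and neither passed the test in those labelled chr11/17. KIN1 had 75 and 77 normalised reads in arid5, against 307 and 290 in WT, and KIN2 had 339 and 436, against 1320 and 1489 in WT. The log2 changes were both -1.84, with SEs of 0.14 for KIN1 and 0.11 for KIN2 (adjusted p = 1.18e-06 and 2.65e-07, limma). In rlt1/2 KIN1 had 65 and 40 normalised reads, against 339 and 320 in WT, a log2 change of -2.48 ± 0.20 (adjusted p = 1.39e-06, limma). KIN2 had 332 and 269 there, against 1462 and 1644 in WT, a log2 change of -2.34 ± 0.11 (adjusted p = 2.98e-08, limma). For both genes the arid5 and rlt1/2 libraries were all below the WT libraries.

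In the libraries labelled chr11/17, KIN1 had 280 and 294 normalised reads, against 306 and 289 in WT, so the groups overlapped (log2 change -0.05 ± 0.11, adjusted p = 0.68, limma; 0.10 at equal library totals). KIN2 had 920 and 1378 there, against 1318 and 1487 in WT, again overlapping (log2 change -0.31 ± 0.18, adjusted p = 0.151, limma). Without chr11/17 replicate 2, the higher library, KIN2 passed the test with a log2 change of -0.60 (adjusted p = 2.24e-05).

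RD29A and RD29B encode hydrophilic stress proteins and lie next to each other, yet carry the unlike element mixes printed above. Both fell in arid5 and in the libraries labelled rlt1/2 and rose in those labelled chr11/17. RD29A had 774 and 805 normalised reads in arid5, against 1819 and 1553 in WT, a log2 change of -1.08 ± 0.08 (adjusted p = 9.41e-07, limma). In rlt1/2 it had 826 and 744, against 2013 and 1714 in WT, a log2 change of -1.23 ± 0.09 (adjusted p = 9.19e-07, limma). In chr11/17 it had 10028 and 10803, against 1816 and 1550 in WT, a 6.19-fold higher mean and a log2 change of 2.63 ± 0.09 (adjusted p = 1.79e-06, limma). The groups did not overlap in any of the 3 comparisons, as was the case for most genes tested.

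RD29B, which responds chiefly to ABA, was a low transcript in WT. It had 38 and 20 normalised reads in arid5, against 97 and 67 in WT, a log2 change of -1.25 ± 0.26 (adjusted p = 0.00198, limma). In rlt1/2 it had 20 and 10, against 106 and 74 in WT, a log2 change of -2.003 ± 0.265 (adjusted p = 6.18e-05, limma). The libraries labelled chr11/17 had 479 and 250, against 97 and 67 in WT, a 4.46-fold higher mean and a log2 change of 1.98 ± 0.31 (adjusted p = 9.44e-04, limma). The 2 chr11/17 libraries were both above WT but far apart.

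COR47, ERD10 and RAB18 encode dehydrins, LEA proteins with a lysine-rich repeat, and they split. The acidic dehydrins COR47 and ERD10 differed little from WT in arid5 and rlt1/2 and rose in the libraries labelled chr11/17, whereas RAB18 fell in all 3 mutants. COR47 had 21513 and 19164 normalised reads in chr11/17, against 5333 and 5613 in WT, a 3.72-fold higher mean and a log2 change of 1.89 ± 0.10 (adjusted p = 5.67e-06, limma). ERD10 had 18917 and 19083 there, against 3109 and 2927 in WT, a 6.3-fold higher mean and a log2 change of 2.65 ± 0.08 (adjusted p = 9.63e-07, limma). For each gene both chr11/17 libraries lay far above both WT libraries.

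In arid5, COR47 had 6356 and 5878 normalised reads, against 5341 and 5621 in WT, a log2 change of 0.16 ± 0.06 that just passed the test (adjusted p = 0.0458, limma). That call was lost in 6 of the 12 alternatives, among them DESeq2 (adjusted p = 0.0866) and the fits without WT replicate 1 (0.291), WT replicate 2 (0.0856) or arid5 replicate 1 (0.204). In rlt1/2, COR47 had 6600 and 7414, against 5914 and 6205 in WT, a log2 change of 0.21 ± 0.08 (adjusted p = 0.0575, limma) that passed without rlt1/2 replicate 1, at 0.29 (adjusted p = 4.88e-04). ERD10 had 2907 and 2702 in arid5, against 3113 and 2932 in WT (log2 change -0.11 ± 0.06, adjusted p = 0.161, limma; 0.15 with adjusted p = 0.0464 at equal library totals). In rlt1/2 ERD10 had 2936 and 3184, against 3447 and 3236 in WT (log2 change -0.13 ± 0.07, adjusted p = 0.184, limma; 0.15 at equal library totals, and adjusted p = 0.029 without rlt1/2 replicate 2). For COR47 in arid5 and rlt1/2, the call therefore rests on the choice of fit or on single libraries, while no alternative turned its direction. For ERD10 in these mutants, the direction rests on the scaling, and the call on the scaling or on single libraries.

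RAB18, the ABA-responsive dehydrin, had 297 and 231 normalised reads in arid5, against 1332 and 1036 in WT, a log2 change of -2.12 ± 0.13 (adjusted p = 3.4e-07, limma). In rlt1/2 it had 336 and 312, against 1474 and 1145 in WT, a log2 change of -1.97 ± 0.11 (adjusted p = 1.48e-07, limma). The libraries labelled chr11/17 had 407 and 272, against 1331 and 1034 in WT, a log2 change of -1.79 ± 0.20 (adjusted p = 1.69e-04, limma). No mutant library came near WT for RAB18. AT5G66410, which overlaps RAB18 by 11 bases on the other strand, had 419 and 421 normalised reads in arid5, against 486 and 504 in WT, a fall of 0.23 ± 0.09 on the log2 scale (adjusted p = 0.0439, limma). That fall is no larger than the 0.25 by which equal library totals shift the median of all genes in arid5. AT5G66410 did not pass in chr11/17 (log2 change -0.16 ± 0.09, adjusted p = 0.148, limma) or in rlt1/2 (-0.20 ± 0.09, adjusted p = 0.105, limma).

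RD20 encodes the caleosin CLO3, a calcium-binding peroxygenase of lipid droplets and membranes that is induced by drought and ABA. It gave the largest rise of the 10 genes. The libraries labelled chr11/17 had 25953 and 21946 normalised reads, against 1577 and 1090 in WT, an 18-fold higher mean and a log2 change of 4.18 ± 0.17 (adjusted p = 2.74e-06, limma). In arid5 it fell, to 575 and 493 normalised reads, against 1579 and 1092 in WT, a log2 change of -1.29 ± 0.14 (adjusted p = 1.53e-05, limma). In rlt1/2 it had 1398 and 1251, against 1747 and 1206 in WT, and the groups overlapped (log2 change -0.13 ± 0.13, adjusted p = 0.437, limma). That value turned on the WT libraries: it was 0.13 without WT replicate 1, -0.40 without WT replicate 2 (adjusted p = 0.00418), and 0.14 at equal library totals.

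**Figure D3:**
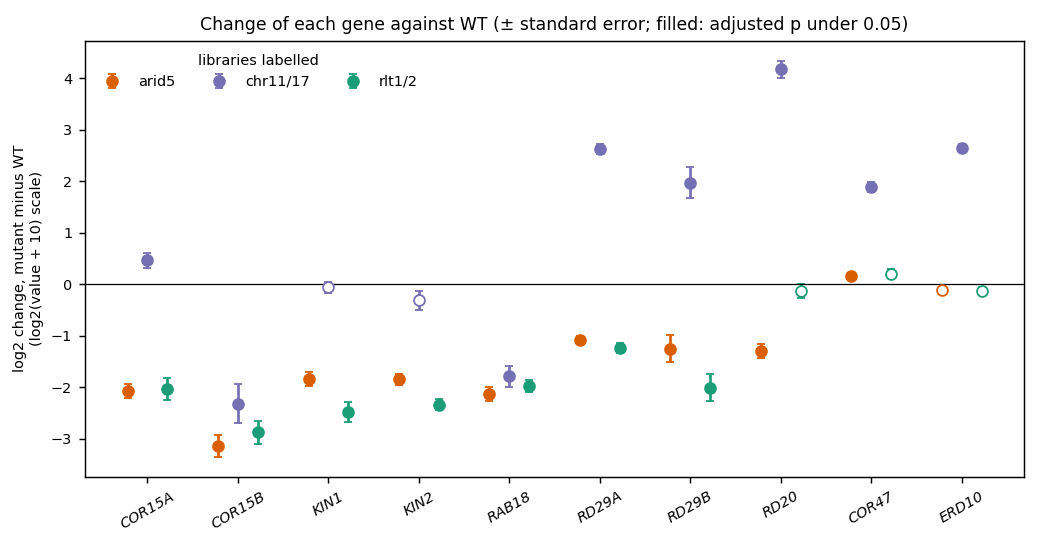
Log2 change against WT of each gene in the libraries labelled arid5, chr11/17 and rlt1/2, on the log2(value + 10) scale with standard errors (2 libraries per group); filled points passed the test (adjusted p under 0.05, limma) and open points did not. RD20 in chr11/17 is highest at 4.18 and COR15B in arid5 lowest at -3.14; the open points for ERD10 in arid5 and rlt1/2, KIN1 in chr11/17 and RD20 in rlt1/2 changed sign at equal library totals.

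The mutants were also compared with each other, with a single edgeR quasi-likelihood fit to the recovered reads of the 8 libraries, in contrasts that leave WT out. Levels in these comparisons are CPM scaled by edgeR's TMM factors, and differences are on the log2 scale of that fit. Between chr11/17 and arid5, 9 of the 10 genes were higher in the libraries labelled chr11/17 and RAB18 did not pass, beside 65.2% of 21288 genes called (32.2% higher and 33.0% lower). Between chr11/17 and rlt1/2, 8 were higher in chr11/17, and COR15B and RAB18 did not pass, beside 64.8% called (32.2% higher and 32.6% lower). Between rlt1/2 and arid5, RD20 alone passed and was higher in rlt1/2, beside 0.366% of all genes called (0.324% higher and 0.0423% lower).

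RD20 had 1100 and 924 CPM in the libraries labelled chr11/17, against 23.9 and 20.5 in arid5. Its fitted level was 45.8-fold higher in chr11/17, a log2 difference of 5.52 ± 0.19 (SE; adjusted p = 5.85e-09, edgeR). RD29A had 425 and 455 CPM in chr11/17, against 32.2 and 33.4 in arid5, a log2 difference of 3.75 ± 0.10 (adjusted p = 2.49e-09, edgeR). KIN1 and KIN2, which did not pass against WT, were higher in chr11/17 than in arid5. KIN1 had 11.9 and 12.4 CPM in chr11/17, against 3.10 and 3.20 in arid5, a log2 difference of 1.95 ± 0.18 (adjusted p = 4.01e-06, edgeR), and KIN2 had 39.0 and 58.0, against 14.1 and 18.1, a log2 difference of 1.60 ± 0.18 (adjusted p = 2.28e-05, edgeR). COR15B, at 0.812 and 2.41 CPM in chr11/17, against 0.765 and 0.507 in arid5, differed by 1.34 ± 0.51 (adjusted p = 0.0387, edgeR). The lower chr11/17 library was close to arid5, and without chr11/17 replicate 2, arid5 replicate 1 or arid5 replicate 2 the difference did not pass (adjusted p = 0.551, 0.0622 and 0.178). RAB18 had 17.2 and 11.5 CPM in chr11/17, against 12.3 and 9.59 in arid5, a log2 difference of 0.39 ± 0.20 (adjusted p = 0.105, edgeR; 0.00693 without chr11/17 replicate 2).

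Against rlt1/2, the gene with the largest difference was RD29B, with 20.3 and 10.6 CPM in chr11/17, against 0.757 and 0.395 in rlt1/2, a log2 difference of 4.76 ± 0.42 (adjusted p = 3.71e-06, edgeR). COR15B differed by 0.86 ± 0.46 (adjusted p = 0.128, edgeR), a value that was 1.44 without chr11/17 replicate 1 and -0.13 without replicate 2. RAB18 differed by 0.25 ± 0.19 (adjusted p = 0.285, edgeR), and this was -0.07 without chr11/17 replicate 1 and 0.51 without replicate 2. For these 2 genes a difference between chr11/17 and rlt1/2 was not detectable with 2 libraries per group.

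RD20 had 52.3 and 46.9 CPM in the libraries labelled rlt1/2, against 23.9 and 20.5 in arid5. Its fitted level was 2.23-fold higher in rlt1/2, a log2 difference of 1.16 ± 0.17 (adjusted p = 0.017, edgeR). The 2 groups did not overlap, and the difference stayed between 1.06 and 1.27 when any 1 of the 4 libraries was left out, but none of those fits passed (adjusted p from 0.0728 to 0.252). KIN1 had 2.41 and 1.52 CPM in rlt1/2, against 3.10 and 3.20 in arid5, a log2 difference of -0.70 ± 0.21 (adjusted p = 0.365, edgeR). RD29B had 0.757 and 0.395 CPM, against 1.57 and 0.858 in arid5, a log2 difference of -1.09 ± 0.56 (adjusted p = 0.699, edgeR). The other 7 genes differed by between -0.52 and 0.49 and did not pass, which does not show that they are equal in the 2 mutants.

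Within the neighbouring pairs, the balance of reads between the 2 genes moved in some cases. COR15B took 9.74% and 6.31% of the reads of its pair in arid5, 1.9% and 4.69% in the libraries labelled chr11/17, 10.2% and 10.4% in those labelled rlt1/2, and 20.9% and 22.1% in WT. The exact 95% binomial intervals, which cover counting error only, reached at most 15.3% in any mutant library and went down to 18.5% in WT, so no mutant library overlapped WT. ERD10 took 46.8% and 49.9% of the reads of COR47 and ERD10 in chr11/17, 31.4% and 31.5% in arid5, 30.8% and 30% in rlt1/2, and 36.8% and 34.3% in WT. It was thus above WT in chr11/17 and below it in arid5 and rlt1/2.

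RD29B took 4.65% and 2.51% of the reads of RD29A and RD29B in arid5, 4.55% and 2.27% in chr11/17, 2.39% and 1.39% in rlt1/2, and 5.06% and 4.12% in WT. Only the rlt1/2 libraries had both values below both WT values by more than the gap between the WT libraries. KIN1 took 18% and 15% of the reads of its pair in arid5, 23.3% and 17.6% in chr11/17, 16.3% and 13% in rlt1/2, and 18.9% and 16.3% in WT, with overlapping groups in arid5 and chr11/17 and the higher rlt1/2 library level with the lower WT library. Shares within a pair show unequal change, not which gene changed, and were not tested.

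**Figure D4:**
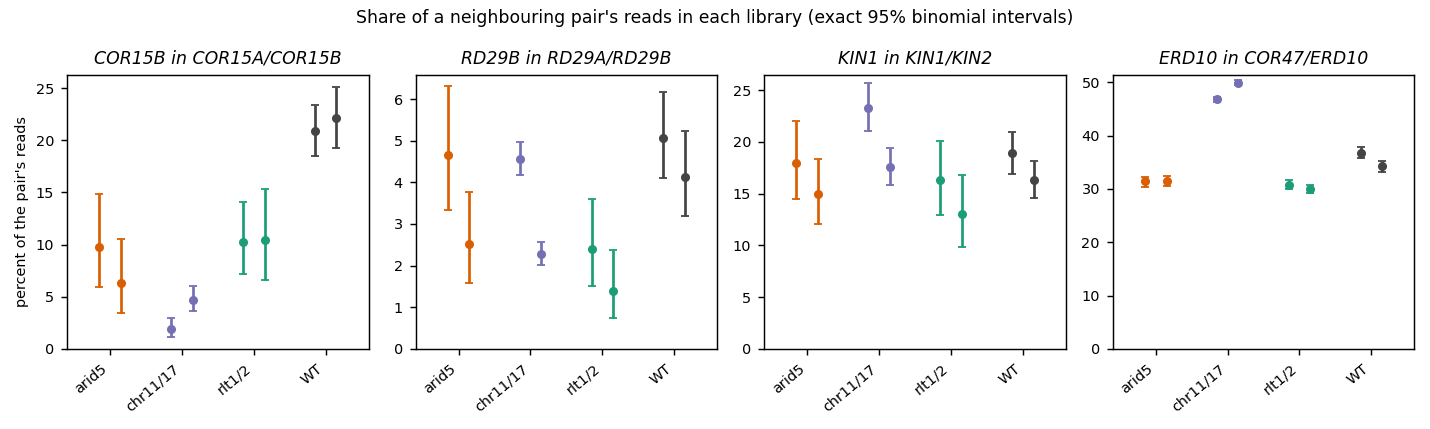
Share of the reads of each neighbouring pair that fell to the named gene, in percent, for every library, with exact 95% binomial intervals for counting error. COR15B lies at 1.9% to 10.4% in the mutant libraries and at 20.9% and 22.1% in WT, and ERD10 lies at 46.8% and 49.9% in the libraries labelled chr11/17.

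Other genes of the pathway were read from 7 lists, beside the shares of all genes called given above. CBF/DREB1-type activators, which bind CRT/DRE, were scarce in these seedlings. CBF3 had 9 and 14 normalised reads in arid5, against 26 and 33 in WT, and fell by 0.90 ± 0.25 (adjusted p = 0.012, limma). In chr11/17 it had 24 and 29, against 26 and 33 in WT, and in rlt1/2 23 and 23, against 29 and 37 in WT; neither passed (adjusted p = 0.588 and 0.202, limma). CBF2 had 10 and 17 in arid5, against 18 and 20 in WT, 15 and 18 in chr11/17, against 18 and 20 in WT, and 12 and 30 in rlt1/2, against 20 and 22 in WT, and passed in none. CBF1 was too low to be tested, with at most 8 reads in any library.

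The related activators DDF1 and DDF2 were called higher in the libraries labelled chr11/17 and listed in that table only. DDF1 had 77 and 74 normalised reads in chr11/17, against 0 and 0 reads in WT (adjusted p = 1.39e-05, limma), and DDF2 had 15 and 23, against 0 and 0 in WT (adjusted p = 9.04e-04, limma). CBF4, listed in the same table, had 4 and 4 normalised reads in chr11/17, against 0 and 0 in WT, and was not tested. Genes at or near 0 in WT enter the test only where the mutant is high, so calls among them can only be rises. In the lists below this holds for MYB15, DREB2B, DREB2C, COR27, XERO1 and AT1G70680. AT4G38410, at 9 and 17 in WT of the arid5 and chr11/17 comparisons, also reached 10 in 2 libraries only with mutant libraries. The same holds for HAI3 in chr11/17, at 9 and 8 in WT, which was not called.

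Of 16 regulators that act upstream of the CBF genes, 2 rose and 10 fell in arid5, 5 rose and 9 fell in chr11/17, and 4 rose and 11 fell in rlt1/2, with median log2 changes of -0.35, -0.42 and -0.39. PIF4, a light and temperature factor, fell in all 3, to 1359 and 1539 normalised reads in arid5, against 3931 and 3519 in WT (adjusted p = 1.71e-07, limma), and with log2 changes of -2.59 ± 0.09 in chr11/17 (adjusted p = 1.63e-06, limma) and -1.503 ± 0.123 in rlt1/2 (adjusted p = 1.75e-06, limma). The clock gene PRR7 fell by 0.98 ± 0.06 in arid5, 1.74 ± 0.07 in chr11/17 and 0.99 ± 0.08 in rlt1/2 (adjusted p = 2.08e-07, 2.64e-06 and 1.39e-06, limma). CAMTA3, a calmodulin-binding activator of CBF genes, fell by 1.07 ± 0.08 in arid5 and 1.06 ± 0.08 in rlt1/2 (adjusted p = 1.63e-06 and 8.83e-07, limma), and by 0.48 ± 0.07 in chr11/17 (adjusted p = 6.32e-04, limma). MYB15, a repressor of CBF genes, had 805 and 735 normalised reads in chr11/17, against 5 and 9 in WT (adjusted p = 1.32e-06, limma). It was also higher in arid5, at 56 and 42, against 5 and 9 in WT, and in rlt1/2, at 69 and 99, against 6 and 10 in WT (adjusted p = 1.35e-04 and 1.26e-05, limma).

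Of 11 ABA and drought transcription factors, 1 of 7 tested rose and 5 fell in arid5, 1 of 8 rose and 5 fell in rlt1/2, and 5 of 9 rose and 4 fell in chr11/17. Of the 5 rises in chr11/17, DREB2B, at 17 and 20 normalised reads, against 2 and 0 in WT, and DREB2C, at 41 and 41, against 4 and 6 in WT, entered the test through the mutant libraries, so no median is given. The ABF genes tested, ABF1 to ABF4, fell in all 3 mutants. ABF3, one of the factors that bind ABRE, had 585 and 602 normalised reads in arid5, against 3415 and 3293 in WT, a log2 change of -2.48 ± 0.06 (adjusted p = 1.08e-09, limma). It had 849 and 677 in rlt1/2, against 3781 and 3635 in WT, a log2 change of -2.27 ± 0.10 (adjusted p = 1.66e-08, limma). ABF2 fell by 0.89 ± 0.08 in arid5 and 0.73 ± 0.10 in rlt1/2, and ABF4 by 0.79 ± 0.07 in arid5 and 0.96 ± 0.10 in rlt1/2 (adjusted p = 3.38e-06, 6.84e-05, 3.6e-06 and 1.13e-05, limma). In chr11/17 ABF3 had 2672 and 2733 normalised reads, against 3410 and 3288 in WT, and fell by 0.31 ± 0.07, ABF2 by 0.50 ± 0.08 and ABF4 by 0.27 ± 0.07 (adjusted p = 0.00454, 8.18e-04 and 0.0121, limma). ABF1 fell by 0.72 in arid5, 0.51 in chr11/17 and 0.44 in rlt1/2 (adjusted p = 0.0014, 0.0105 and 0.0187, limma). The smaller of these falls in chr11/17 are not far above the 0.15 by which equal library totals shift the median of all genes there. The values of these genes at that scaling are not given here. In chr11/17 the rises with the smallest adjusted p were ABI5, at 171 and 173 normalised reads, against 15 and 13 in WT, DREB2A, at 227 and 269, against 25 and 30 in WT, and MYB96, at 1136 and 966, against 331 and 297 in WT (adjusted p = 1.07e-05, 1.39e-05 and 1.44e-05, limma). ABI5 was higher in the other mutants too, at 33 and 40 in arid5, against 15 and 13 in WT, and at 26 and 50 in rlt1/2, against 16 and 14 in WT (adjusted p = 0.00523 and 0.0199, limma). MYB96 fell by 0.52 ± 0.12 in arid5 and 0.33 ± 0.12 in rlt1/2 (adjusted p = 0.0032 and 0.0337, limma), and DREB2A passed in neither (adjusted p = 0.372 and 0.151, limma).

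Among 20 other ABA and drought-induced genes, 4 of 19 tested rose and 11 fell in arid5, 4 of 19 rose and 10 fell in rlt1/2, and 15 of 20 rose and 2 fell in chr11/17, with medians of -0.61, -0.44 and 2.89. HAI3, counted among the 20 and in the median in chr11/17, entered the test there through the mutant libraries and was not called. P5CS1, which makes the protective solute proline, fell to 7579 and 5308 normalised reads in arid5, against 30603 and 24200 in WT, and to 8914 and 5588 in rlt1/2, against 33885 and 26715 in WT (adjusted p = 5.5e-07 and 2.45e-06, limma). GOLS2, a galactinol synthase, fell by 2.37 ± 0.17 on the log2 scale in arid5 and 2.72 ± 0.21 in rlt1/2, and the drought-induced linker histone gene HIS1-3 by 2.13 ± 0.12 and 1.91 ± 0.12 (adjusted p from 2.18e-07 to 1.4e-06, limma). P5CS1 and GOLS2 were also the 2 that fell in chr11/17, P5CS1 to 13509 and 11776 normalised reads, against 30560 and 24165 in WT, and GOLS2 to 160 and 299, against 1053 and 659 in WT (adjusted p = 4.08e-04 and 0.00126, limma). HIS1-3 was higher there, at 1287 and 1226, against 584 and 513 in WT (adjusted p = 2.75e-05, limma). In chr11/17 the NAC factor gene NAC019 had 6477 and 5997 normalised reads, against 51 and 52 in WT, a 122-fold higher mean (adjusted p = 1.18e-07, limma). NAC019 was also higher in arid5, at 148 and 71, against 51 and 52 in WT, and in rlt1/2, at 221 and 217, against 56 and 57 in WT (adjusted p = 0.0182 and 3.7e-06, limma). RD26, another NAC factor gene, had 4815 and 4441 in chr11/17, against 540 and 522 in WT, and the ABA-induced phosphatase gene HAI1 had 11420 and 9434 in chr11/17, against 294 and 217 in WT (adjusted p = 5.5e-07 and 9.51e-07, limma). RD26 fell by 0.51 ± 0.09 in arid5 and 0.44 ± 0.09 in rlt1/2 (adjusted p = 6.03e-04 and 0.00214, limma), and HAI1 fell by 0.61 ± 0.19 in arid5 (adjusted p = 0.0189) and did not pass in rlt1/2 (adjusted p = 0.796, limma).

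Of 12 other cold-induced genes, 2 of 10 tested rose and 3 fell in arid5, 2 of 11 rose and 4 fell in rlt1/2, and 5 of 11 rose and 3 fell in chr11/17. COR413PM1, a plasma membrane protein gene, fell by 0.85 ± 0.05 in arid5 and 1.05 ± 0.07 in rlt1/2 (adjusted p = 3.69e-07 and 3.07e-07, limma), and by 0.20 ± 0.07 in chr11/17 (adjusted p = 0.0291, limma). The change in chr11/17 is not far above the 0.15 by which equal library totals shift the median of all genes there. The chloroplast desaturase gene FAD8 fell in all 3 mutants, by 0.81 ± 0.06 in arid5, 1.92 ± 0.13 in chr11/17 and 0.86 ± 0.10 in rlt1/2 (adjusted p = 1.48e-06, 2.03e-05 and 1.99e-05, limma). The alcohol dehydrogenase gene ADH1 rose in all 3 mutants, to 3711 and 5230 normalised reads in arid5, against 2051 and 1396 in WT, to 12512 and 4232 in chr11/17, against 2048 and 1393 in WT, and to 4543 and 3137 in rlt1/2, against 2269 and 1542 in WT (adjusted p = 3.56e-05, 0.00473 and 4.2e-04, limma). The zinc finger gene ZAT10 rose by 2.86 ± 0.13 in chr11/17 and 1.66 ± 0.16 in rlt1/2, and LEA14 by 1.83 ± 0.07 in chr11/17 (adjusted p = 4.02e-06, 4.75e-06 and 2.06e-06, limma). ZAT10 did not pass in arid5 (adjusted p = 0.132, limma), and LEA14 fell by 0.40 ± 0.07 in arid5 and 0.26 ± 0.07 in rlt1/2 (adjusted p = 4.72e-04 and 0.0105, limma), of which the change in rlt1/2 is no larger than the shift of all genes at equal library totals.

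Of 7 other dehydrins, 1 of 4 tested rose and 1 fell in arid5 and in rlt1/2, and 4 of 5 rose and 1 fell in chr11/17. HIRD11 was the one that fell, by 0.39 ± 0.07 in arid5, 0.89 ± 0.10 in chr11/17 and 0.36 ± 0.10 in rlt1/2 (adjusted p = 5.03e-04, 1.81e-04 and 0.0137, limma). AT4G38410, annotated as a dehydrin family protein, rose in all 3 mutants, to 71 and 76 normalised reads in arid5, against 9 and 17 in WT, to 73 and 88 in chr11/17, against 9 and 17 in WT, and to 75 and 100 in rlt1/2, against 10 and 18 in WT (adjusted p = 5.27e-05, 2.56e-04 and 3.73e-05, limma). In arid5 and chr11/17 AT4G38410 entered the test through the mutant libraries, as XERO1 did in chr11/17, so these calls could only be rises. In chr11/17 LTI30 rose by 2.73 ± 0.15 and ERD14 by 1.63 ± 0.10 (adjusted p = 7.49e-06 and 1.34e-05, limma).

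Of the other caleosins, 2 were tested. CLO4 rose in chr11/17, to 796 and 732 normalised reads, against 341 and 348 in WT (adjusted p = 3.59e-05, limma), and did not pass in arid5 or rlt1/2. AT1G70680, annotated as a caleosin-related family protein, rose in all 3 mutants: it had 13 and 23 normalised reads in arid5, against 2 and 3 in WT, 520 and 388 in chr11/17, against 2 and 3 in WT, and 25 and 70 in rlt1/2, against 2 and 3 in WT (adjusted p = 0.00603, 2.31e-06 and 4.85e-04, limma).

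**Figure D5:**
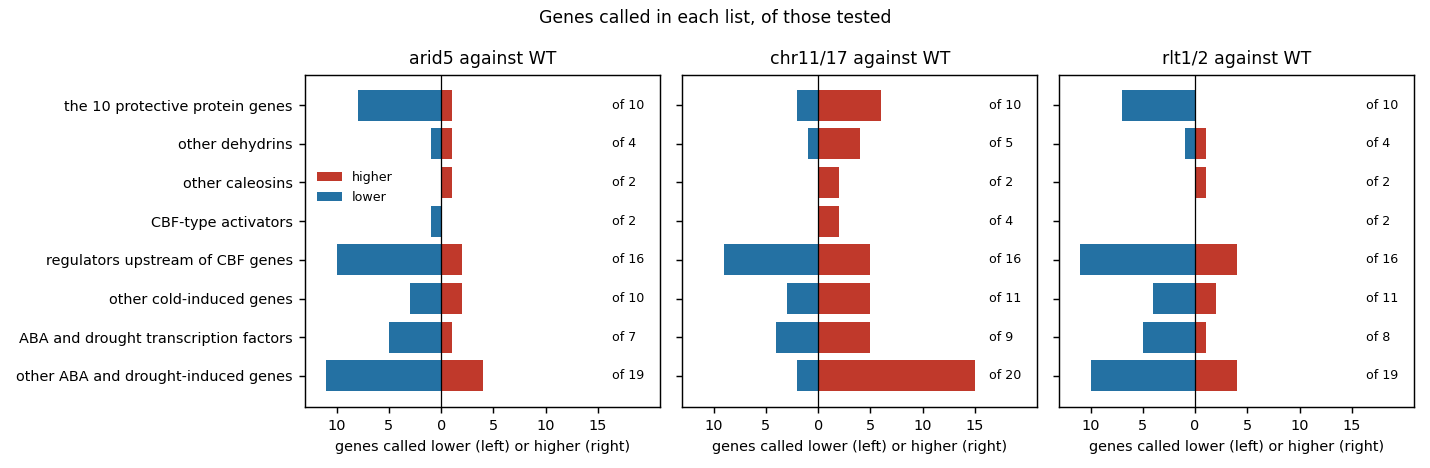
Number of genes called lower (left) or higher (right) against WT in each mutant, for the 10 protective protein genes and 7 other lists of the pathway, with the number tested at the right of each row. In the libraries labelled chr11/17, 15 of 20 other ABA and drought-induced genes were called higher, and in arid5 and rlt1/2 most calls among the 10 genes and in that list were lower.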

How the data were processed

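HISAT2, edgeR and the TAIR10 build are named in the submitters' processing notes; the sources used here do not give versions, the read counter, the gene annotation or the use of strand. The authors deposited 3 tables of a normalised signal per gene, each with the WT libraries and those of 1 mutant. These values are whole reads adjusted by edgeR's quantile method to the common library size of the table. The adjustment was inverted here: 100.0% of values came back as whole reads within a relative tolerance of 1e-10, and 0 WT reads differed between tables.

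Within each table, the 2 mutant libraries were set against the 2 WT libraries by limma 3.58.1 (trend; R 4.3.3) after a log2(value + 10) transform, for genes that reached 10 in 2 or more libraries. Mutants were compared with each other by edgeR 4.0.16 (quasi-likelihood, TMM, filterByExpr) on the recovered reads. Tests were two-sided, and adjustment was by Benjamini-Hochberg over all genes tested, with a threshold of 0.05. RPKM used the recovered reads, TMM-scaled library sizes and exon lengths of the RefSeq annotation on TAIR10.1, from which sequences and coordinates also come. Exon length was that of the exons of all annotated transcripts of a gene, merged. Promoter and protein sequence tables were not used here.

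Alternatives were other pseudocounts and filters, equal library totals, edgeR and DESeq2 1.42.0 on the recovered reads, the replicate number as a block, and leaving out each library. All 10 genes were described, with the 5 mutated genes; of 7 other pathway lists, up to 3 called members per mutant with the smallest adjusted p were named, or up to 2 tested members where none was called, and CBF-type activators with reads. The genes and lists were chosen with earlier results of these data known. The inversion and tests were tested on simulated data.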

Additional observations from a re-analysis of the deposited data

How the results depend on the processing

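Against WT, 113 of the values of the 10 genes over 12 alternatives kept direction and call in arid5, 116 in chr11/17 and 112 in rlt1/2; between mutants, 73 did so for chr11/17 against arid5, 70 for rlt1/2 against arid5 and 76 for chr11/17 against rlt1/2, over 8 alternatives each. At equal library totals the log2 change turned to 0.15 for ERD10 in arid5 (adjusted p = 0.0464), 0.10 for KIN1 in chr11/17, 0.15 for ERD10 in rlt1/2 and 0.14 for RD20 in rlt1/2, beside the shifts of all genes given above. With 1 library left out, RD20 in rlt1/2 ranged from -0.40 to 0.13 (without WT replicate 2 and 1). The number of all genes called between rlt1/2 and arid5 was 175 with DESeq2, against 78 with edgeR, and from 19 to 66 with 1 library left out, and of the 10 genes 0 were called whichever library was left out, against 1 with all libraries and with DESeq2. In the same comparison, with 1 library left out, COR15A ranged from -0.34 to 0.44, COR47 from -0.0424 to 0.13, ERD10 from -0.0855 to 0.0343 and RAB18 from -0.0136 to 0.34, each turning sign. Between chr11/17 and rlt1/2, COR15B ranged from -0.13 to 1.44 and RAB18 from -0.0735 to 0.51 in the same way. The cause was not tested. With 2 libraries per group, leaving 1 out assumes that the lone library varies like the others.

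The labels give WT and mutant libraries the same replicate numbers but no pairing, and deviations of same-numbered libraries correlated at -0.0025 in arid5, 0.0139 in chr11/17 and 0.1560 in rlt1/2; with 2 libraries per group this does not settle whether the numbers pair them, and the fits above use no block. With the replicate number as a block, 9915 genes were called in arid5, 14833 in chr11/17 and 11364 in rlt1/2, against 9846, 14992 and 9926 without it, and 8, 9 and 8 of the 10 genes, against 9, 8 and 7. The block moved the call of COR47 in arid5 (adjusted p = 0.05) and in rlt1/2 (0.0119), of KIN2 in chr11/17 (0.0284), and, between chr11/17 and arid5, of COR15B (0.0562) and RAB18 (0.02).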
